A study of Caenorhabditis elegans with 4 samples.

Results

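Chromosome V of the nematode Caenorhabditis elegans held 448 of the 3669 genomic regions bound by the transcription factor LSY-2 in embryos. The members are all regions of the authors' combined peak list whose sequence name was V, so within that list position alone chose them. The list itself had been made by the authors' peak calling. The assay was ChIP-seq, chromatin immunoprecipitation followed by sequencing, in which protein is fixed to DNA, precipitated with an antibody and the attached DNA sequenced. All samples came from embryos of strain OP367, which carries the allele unc-119(ed3) and the transgene wgIs367 with lsy-2 fused to the tags TY1, EGFP and FLAG, a mixed population of males and hermaphrodites grown at 20 °C and fixed in 2% formaldehyde. The transgene, introduced by bombardment into unc-119(ed3) animals and outcrossed 3 times, supplies the GFP-tagged LSY-2 that was precipitated with GFP antibodies, and unc-119 in it marks transformed animals. The labels do not say whether the strain also has an intact lsy-2 gene of its own. There were 4 samples, 2 LSY-2 GFP ChIP samples and 2 inputs of total chromatin. Peak lists of both ChIP samples and the combined list were analysed, the inputs were not used here, and the read depth behind the peaks is unknown. The lists name the peak caller SPP followed by IDR, a procedure that measures agreement in rank between replicates. The 2 replicate lists were not limited to peaks that recur, since 40.3% of the V peaks of replicate 1 and 41.5% of those of replicate 2 overlapped a peak of the other.

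LSY-2 is a C2H2 zinc finger protein, named from a screen for mutants in which the left and right ASE taste neurons lose their difference. In that pair of neurons it is known to act through lsy-6, a microRNA made in the left cell. A whole embryo holds very few cells of this type, so a ChIP of embryos reads binding summed over all tissues. The autosomes of this nematode have gene-dense centres with conserved, broadly used genes, and arms that recombine more and carry more repeats and young gene families. Chromosome V is known for its many chemoreceptor and nuclear hormone receptor genes.

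The gene table used here, RefSeq's for assembly WBcel235, places lsy-6 on V, lsy-2 on X and unc-119 on III. It assigns V 4995 of 19971 nuclear protein-coding genes. Of 1369 genes with a chemoreceptor-type name (str, or sr followed by 1 or 2 letters) 905 were on V, or 66.1%, and of 269 nuclear hormone receptor (nhr) genes 167 were, or 62.1%. These counts describe the chromosome and not the peaks. The peaks are in genome build WS220, and because no annotation or sequence of that build was used, no peak was tied to a gene and no sequence is shown. Whether a peak lies at lsy-6 was therefore not analysed here.

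LSY-2 regions were sparse on V. The 448 regions made up 12.2% of the list, on a span that is 20.9% of the summed length of the 6 nuclear chromosomes. Set against gene number, V had 89.7 regions per 1000 protein-coding genes, X had 156, IV 175, II 186, I 258 and III 318. Per length, V with 21.4 and X with 24.1 regions per Mb lay close together, so the distance between V and X was wider on the gene scale than on the length scale. The V regions covered 148 kb, or 0.706% of the span from base 2757 to base 20923077. No test was made between chromosomes, and regions are not replicates of a chromosome.

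The regions on V lay toward the centre of the chromosome, and fewer lay on the left than on the right. In the central 50% of the span there were 282 regions, or 62.9% (exact Clopper-Pearson 95% interval 58.3% to 67.4%), against 53.0% of all 3669 regions. The central share was 57.4% on I (exact 95% interval 53.8% to 61.0%, which overlaps that of V), 53.3% on IV, 50.6% on II, 49.8% on III and 43.9% on X. The left outer 25% of V held 73, or 16.3% (exact 95% interval 13.0% to 20.0%), and the right outer 25% held 93, or 20.8% (exact 95% interval 17.1% to 24.8%). In density this was 14.0 regions per Mb on the left, 27.0 in the centre and 17.8 on the right. The intervals of the left and the right overlap. All intervals cover the counting of regions only.

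Both ChIP samples showed this distribution among their strongest peaks. A peak's name ends in a number that was read as its rank, although no source states that meaning. Among the first 3669 ranks, replicate 1 had 451 peaks on V with 61.2% of them central, and replicate 2 had 464 with 63.1% central. Of these peaks 371 and 375 overlapped a combined region, so the shares are no separate evidence of the distribution. In the whole lists of 30000 peaks, V had 4827 peaks in replicate 1 with 48.9% central and 4601 in replicate 2 with 48.8% central. By these 3 broad zones the whole lists had 241, 226 and 231 peaks per Mb on the left, in the centre and on the right in replicate 1, and 233, 215 and 217 in replicate 2. On a finer scale they were uneven, since bins of 1 Mb that lie wholly within V held from 110 to 307 peaks in replicate 1 and from 108 to 298 in replicate 2.

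Cut into 10 equal segments numbered from the left end, V was fullest in segments 6 and 7 and again at its right end. Segments 6 and 7 held 66 and 64 regions and segment 5 held 55. The right end, segment 10, held 57, while its neighbours 8 and 9 held 31 and 29. On the left, segment 1 held 33 and segment 2 held 23, the fewest, and segments 3 and 4 held 50 and 40. The first 3669 ranks of each replicate gave counts from 25 to 65 in replicate 1 and from 23 to 68 in replicate 2, lowest in segment 2 and highest in segment 6 in both, with segment 7 level with it in replicate 2. The replicates lay furthest apart in segment 7, with 53 and 68 peaks. By bins of 1 Mb, V 11000001 to 12000000 was fullest with 35 regions, and V 16000001 to 17000000 and V 17000001 to 18000000 were emptiest with 7 each.

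**Figure D1:**
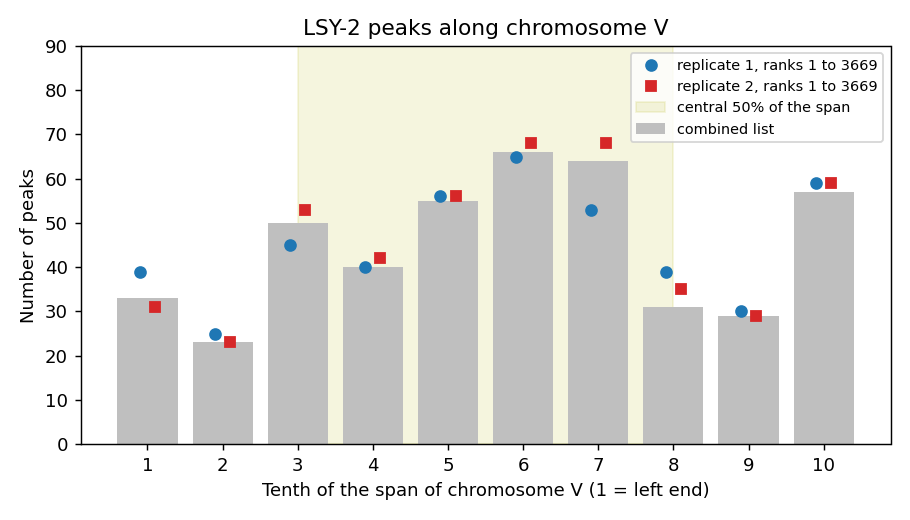
Number of LSY-2 peaks (vertical axis) in 10 equal segments of the span of chromosome V (horizontal axis, 1 is the left end); bars are the combined list, circles and squares the first 3669 ranks of replicates 1 and 2, and the shaded part the central 50%. The bars are highest in segments 6 and 7 (66 and 64) and rise again to 57 at the right end, and no error bars are drawn because each point is 1 list.

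The central share was above 50% in every rank class of the combined list, although the intervals of its classes within rank 500 reached below 50%. In the replicate lists it was above 50% in the stronger ranks and not in the weakest. In the combined list 67.2% of V regions of ranks 1001 to 2000 were central (86 of 128, exact 95% interval 58.3% to 75.2%) and 57.6% of those of ranks 2001 to 3669 (117 of 203, exact 95% interval 50.5% to 64.5%). In replicate 1 the central share of V peaks was 64.3% at ranks 1001 to 2000, 53.5% at ranks 3670 to 10000 and 45.4% at ranks 20001 to 30000. In replicate 2 it was 71.4%, 49.4% and 43.9% in the same classes. Both replicates thus had a central share above 50% in each class up to rank 3669, and below 50% in each class beyond rank 10000. Some of the exact 95% intervals include 50%. This held at ranks 1 to 100 of both, at ranks 2001 to 3669 of replicate 1 (48.0% to 62.0%) and at ranks 10001 to 20000 of replicate 2 (46.7% to 51.6%).

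**Figure D2:**
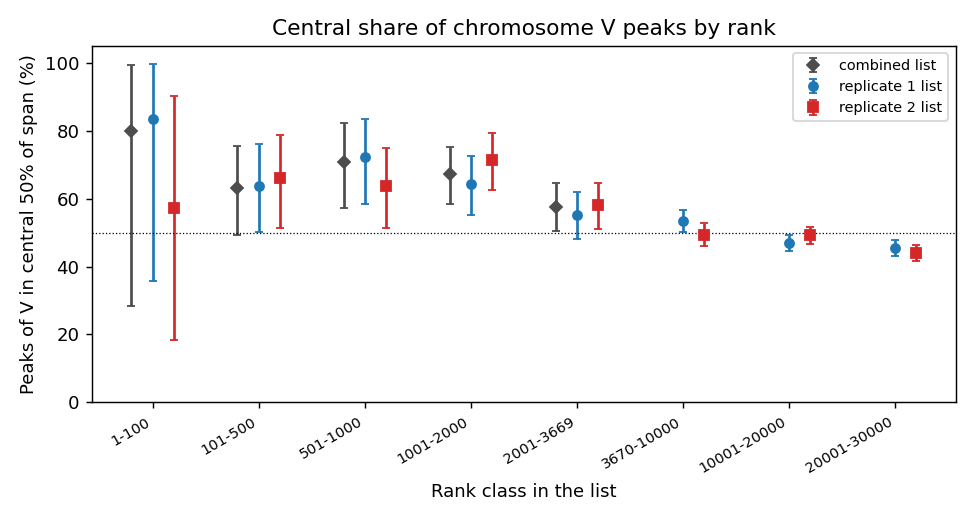
Share of chromosome V peaks in the central 50% of the span (vertical axis, %) by rank class (horizontal axis), in the combined list and in each replicate list; points are shares, bars exact 95% intervals that cover counting of peaks only, and the dotted line is 50%. The points lie above the line up to rank 3669 and below it beyond rank 10000, and the first class, with 5 to 7 peaks, has wide intervals.

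The strongest region on V was V 11764276 to 11764890 in the centre, at rank 24 of the combined list, rank 19 in replicate 1 and rank 32 in replicate 2. It was also the widest on V, at 615 bp. The next was V 15511560 to 15512071, at combined rank 40, rank 59 in replicate 1 and rank 22 in replicate 2. V 2694369 to 2694822, on the left, stood at rank 47, with ranks 50 and 46 in the replicates. These were followed by V 14612167 to 14612586 at rank 51 (ranks 55 and 44) and V 12318099 to 12318523 at rank 56 (ranks 63 and 43). So 4 of the 5 regions of V within rank 100 were central.

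The other 5 of the 10 best ranked regions stood close together in rank but far apart along V. They were V 17981698 to 17982201 at rank 102, V 20845424 to 20845849 at rank 104, V 5584370 to 5584769 at rank 115, V 19643840 to 19644303 at rank 116 and V 8078 to 8469 at rank 121. The last lies at the left end of the span and the second near its right end. In replicate 1 these 5 had ranks of 85 to 120, and in replicate 2 of 89 to 135. All 10 were found within rank 135 of each replicate list, with midpoints at most 36.5 bp apart from the replicate peak. Of the segments without one of these 10, segment 4 had its best region at V 7983591 to 7983974 (rank 150) and segment 5 at V 10042271 to 10042693 (rank 124).

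Beyond the very top, V regions had the ranks of the list as a whole. Their median rank was 1803.5 (95% interval 1560 to 2005 from order statistics), against 1835 over all regions. Within rank 100 there were 5 V regions, or 5% of that class (exact 95% interval 1.64% to 11.3%). At ranks 101 to 500 there were 57, or 14.25% (exact 95% interval 11.0% to 18.1%), and V made up 11.0% at ranks 501 to 1000, 12.8% at ranks 1001 to 2000 and 12.2% at ranks 2001 to 3669. In all, 62 V regions, or 13.8%, stood within rank 500, beside 13.6% of all regions. The share of V rose in the weak ranks of the replicates, to 18.0% in the lowest 10000 ranks of replicate 1 and 16.3% in those of replicate 2, nearer to its 20.9% of the span.

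Within V, regions in the centre had slightly better ranks than those in the arms, by less than the intervals allow to separate. The median rank was 1678.5 in the centre (95% interval 1462 to 1883), 2060 on the left (1439 to 2448) and 2007 on the right (1572 to 2564). Of central regions 79 of 282, or 28.0%, stood within rank 1000, of the left 19 of 73, or 26.0%, and of the right 19 of 93, or 20.4%. The lowest ranked regions of V were V 11844814 to 11845183, V 11195332 to 11195701, V 19886271 to 19886640, V 18977081 to 18977450 and V 7064165 to 7064534, at ranks 3648 to 3665. All 5 were 370 bp wide, and 3 of the 5 were central.

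The authors' score ordered few of the V regions. It stood at the maximum of the list, 3.80, in 389 of 448, or 86.8%, beside 85.8% of all regions. The other 59 had scores from 2.38 upward, and their ranks began at 3154.

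Width followed rank on V in 3 stretches. The 5 regions within rank 100 were 420 to 615 bp wide. At ranks 101 to 500 the median width was 266 bp, and 46 of 57 were narrower than 370 bp. At ranks 501 to 1000 the median was 176 bp, and 45 of 55 were narrower than 370 bp. From there on nearly all regions had exactly 370 bp, 111 of 128 at ranks 1001 to 2000 and 201 of 203 below. Over all of V, 322 regions, or 71.9%, had this common width, beside 71.1% of all regions. The 5 widest were V 11764276 to 11764890, V 15511560 to 15512071, V 17981698 to 17982201, V 19643840 to 19644303 and V 9730954 to 9731411, all within rank 143. How the caller set widths is not given in the sources used here.

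**Figure D3:**
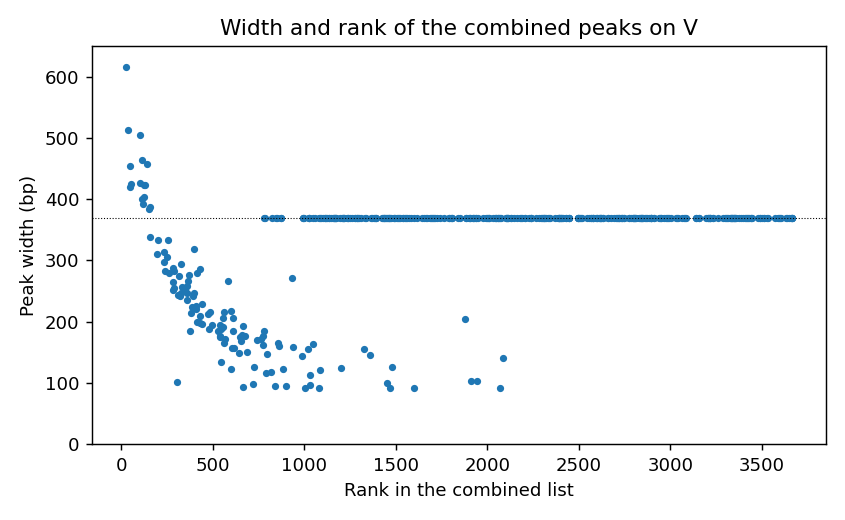
Width in bp (vertical axis) of each of the 448 combined peaks on chromosome V against its rank in the combined list (horizontal axis); each point is 1 peak and the dotted line is 370 bp. Widths fall from 615 bp at rank 24 to about 100 bp near rank 1000, while a second set of points, 322 in all, lies on the line.

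Regions on V were far apart. The median distance between neighbouring midpoints was 22.3 kb (95% interval 19.1 to 27.4 kb from order statistics, 447 distances), against 13.1 kb over all chromosomes. X was like it at 22.5 kb, and III was closest packed at 8.39 kb. On V 16 distances, or pairs of neighbours, were under 1 kb, 87 were under 5 kb and 58 were over 100 kb. Seen by region, 157 of 448, or 35.0%, had a neighbour within 5 kb (exact 95% interval 30.6% to 39.7%), beside 45.9% of all regions. Of 419 windows of 50 kb along V, 189 held no region, and 13 held 5 or more.

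**Figure D4:**
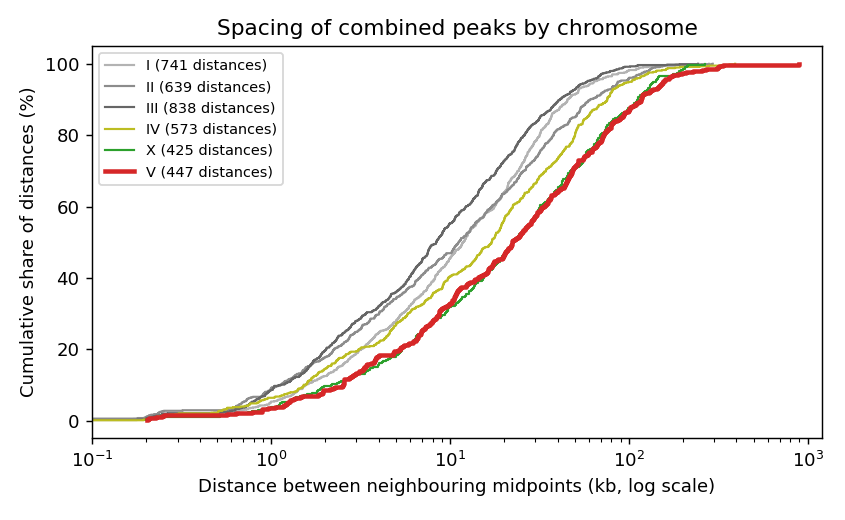
Cumulative share (vertical axis, %) of the distances between neighbouring midpoints of combined peaks (horizontal axis, kb, log scale, drawn from 0.1 kb), 1 line per chromosome with V as the thick line. The lines of V and X run together at medians of 22.3 and 22.5 kb and to the right of the other 4, and V alone goes on to 892 kb.

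The longest stretch without a combined region was on V. From V 16965722 to 16965919 (rank 433) to the next region at V 17857829 to 17858198 (rank 1277) the midpoints were 892 kb apart, while the largest distance on any other chromosome was 393 kb, on IV. The second on V, 753 kb, began at the strong left region of rank 47 and ended at V 3447124 to 3447493 (rank 2181). The third, 338 kb, ran from V 349077 to 349446 to V 687150 to 687519. The largest stretch was thinly covered in the replicate lists as well. Replicate 1 had 65 peaks wholly inside it, 72.9 per Mb, against 231 per Mb over V, and replicate 2 had 60, 67.3 per Mb, against 219.9. Of these, 9 in each list overlapped a peak of the other, and the best ranks were 3208 and 6221. In the second stretch the density was 146 and 122 per Mb, with best ranks of 3415 and 3808. How much of these stretches could be mapped by reads was not tested.

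Along V the median distance was 45.1 kb on the left (95% interval 24.7 to 60.3 kb), 22.1 kb in the centre (16.8 to 26.4 kb) and 14.8 kb on the right (8.61 to 29.8 kb). These intervals overlap, those of the left and the centre only from 24.7 to 26.4 kb. In density the left had 14.0 regions per Mb and the centre 27.0. Whether spacing differs along V was not tested. On the right, segment 10 held 57 regions and segment 9 held 29. Both of the fullest 50 kb windows were there. V 18950001 to 19000000 held 7 regions with a best rank of 261, and in the first 3669 ranks it held 6 peaks in replicate 1 and 8 in replicate 2. V 19600001 to 19650000 held 6 with a best rank of 116, and 7 and 5 peaks in the replicates. Of the windows with 5 regions, the first from the left was V 5550001 to 5600000, in the centre.

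When regions within 5 kb were merged, the 448 became 356 stretches, of which 285 held a single region. There were 55 of 2 regions, 11 of 3 and 5 of 4. The 5 largest were V 6224457 to 6229715, V 13457822 to 13468543, V 13556637 to 13568893, V 17981698 to 17986197 and V 18536687 to 18542719, a set singled out after its values were seen. The fourth of these held the region of rank 102, and the best of the others was at rank 1088. Regions with a neighbour under 1 kb had a median rank of 2005 (31 regions, 95% interval 1048 to 2510), and those whose nearest neighbour was 50 kb or more away had one of 1692 (41 regions, 95% interval 1277 to 2712), so crowded and lone regions did not separate by rank.

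Neighbours under 1 kb formed 16 pairs. In them the better region had a median rank of 1068 and the other one of 2561.5, an order that the choice of better and worse fixes. In 7 pairs the better stood within rank 1000, and in 2 of them so did the other. The closest pair was V 6043345 to 6043714 with V 6043548 to 6043917, 203 bp apart, followed by pairs at V 20580586 to 20580749 (205 bp) and V 9856257 to 9856626 (207 bp). In each of these 3 pairs the regions overlap, as they do in 6 pairs of neighbours on V in all. In 7 of the 16 pairs a single peak of replicate 1 overlapped both regions, and in the same number a single peak of replicate 2 did. Some of these regions also overlapped a further replicate peak. V 12967833 to 12968119 and V 12968178 to 12968278 had best replicate 1 ranks of 288 and 331. Sharing a peak therefore does not show that 2 regions are 1 in the replicate lists.

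Recurrence in the replicates was nearly complete on V. Of 448 regions, 447 overlapped a peak of both replicates by at least 1 bp, or 99.8% (exact 95% interval 98.8% to 99.99%), beside 99.2% of all regions. IDR selects for recurrence where it makes a combined list, so this share is no separate evidence that binding recurs. The exception was V 6709053 to 6709422, at combined rank 3343, which overlapped a replicate 2 peak of rank 1799 and no peak of replicate 1. Midpoints of V regions lay a median of 14 bp from the nearest overlapping peak in each replicate. At a reciprocal overlap of 50%, 374 regions, or 83.5%, were in both and 48 were in neither.

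A stricter reading is whether a region lies within the first 3669 ranks of both replicates. On V 306 regions did, or 68.3% (exact 95% interval 63.8% to 72.6%), beside 68.6% of all regions. All 62 V regions within rank 500 and all 55 of ranks 501 to 1000 did so, then 125 of 128 at ranks 1001 to 2000 and 64 of 203, or 31.5%, at ranks 2001 to 3669. By position the shares were 72.7% in the centre (exact 95% interval 67.1% to 77.8%), 57.5% on the left (45.4% to 69.0%) and 63.4% on the right (52.8% to 73.2%), with overlapping intervals between the centre and each side. Of the 447 regions found in both, 78 lay beyond rank 3669 in replicate 1, 71 in replicate 2 and 8 in both.

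Spearman's rho of the ranks in the replicates was 0.64 across the 447 V regions found in both. It is a description, because a list made with IDR can be selected for agreement in rank, regions share libraries and neighbours may share a replicate peak. All 117 regions within rank 1000, but 64 of the 203 of ranks 2001 to 3669 lay within the first 3669 ranks of both. It was 0.66 over all chromosomes, 0.54 on X and 0.71 on II. In 313 V regions, or 70.0%, the ranks were within 2-fold of each other, as they were in 2629 of 3640 regions, or 72.2%, over all chromosomes. Neither sample ranked V regions lower than the other, since 224 had the worse rank in replicate 1 and 223 in replicate 2.

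The 5 regions whose ranks differed most had ranks of 7306 or worse in one sample and of 2249 or better in the other. V 9664621 to 9664990 had rank 22093 in replicate 1 and rank 1059 in replicate 2. V 11707119 to 11707488 had ranks 29418 and 2165, and V 13462939 to 13463308 had ranks 28139 and 2249. The other two were better in replicate 1, V 10031429 to 10031798 with ranks 1218 and 15885 and V 975214 to 975583 with ranks 692 and 7306. In combined rank these 5 stood between 1655 and 3573. In V 9664621 to 9664990 the replicate 1 peak had its midpoint 370 bp away and in V 10031429 to 10031798 the replicate 2 peak 330 bp away, so these matches overlap only near an edge.

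**Figure D5:**
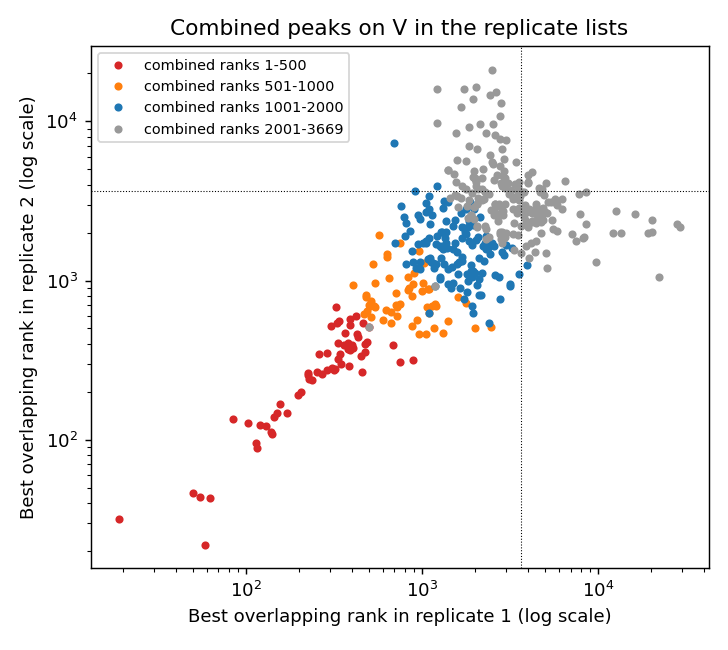
Best rank of an overlapping peak in replicate 1 (horizontal axis, log scale) and replicate 2 (vertical axis, log scale) for the 447 combined peaks on chromosome V found in both; colours give the class of the combined rank and dotted lines mark rank 3669. Peaks within combined rank 1000 lie inside both lines, and the grey points of ranks 2001 to 3669 spread beyond one line or the other, 8 of all points lying beyond both.

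Seen from the replicate lists, strong peaks on V recurred and weak ones mostly did not. All 64 V peaks within rank 500 of replicate 1, and 56 of 57 of replicate 2, overlapped a peak of the other list. At ranks 3670 to 10000 the share was 53.5% in replicate 1 and 50.0% in replicate 2, and in the lowest 10000 ranks it was 27.6% and 29.6%. Over all nuclear chromosomes ranks 3670 to 10000 gave 57.5% and 56.0%, and the lowest 10000 ranks 32.9% and 32.5%. The fall with rank was therefore not particular to V. Over the whole lists the shares were 47.6% and 46.8% on all nuclear chromosomes, and lower on V at 40.3% and 41.5%. How far the density of each list sets these shares was not tested.

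The combined list took up a larger part of the replicate peaks in the centre of V than in its arms. Of replicate 1 peaks on V, 13.5% in the centre overlapped a combined region (exact 95% interval 12.1% to 14.9%), 6.90% on the left (5.57% to 8.45%) and 9.04% on the right (7.48% to 10.8%). In replicate 2 it was 13.9% in the centre (12.5% to 15.5%), 6.89% on the left (5.53% to 8.45%) and 8.80% on the right (7.21% to 10.6%). Over all nuclear chromosomes the share was 14.1% in replicate 1 and 13.8% in replicate 2. The centre of V was thus near the share of the whole lists, and its arms lay below it. Within ranks 1001 to 3669 the order was the same, at 80% in the centre, 69.5% on the left and 72.2% on the right in replicate 1 and 78.3%, 64.2% and 69.9% in replicate 2, but the intervals overlapped. By segment the share was highest in segment 7, at 15.3% and 15.1%, and lowest in segment 1 of replicate 1 (6.63%) and segment 2 of replicate 2 (7.18%).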

How the data were processed

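ChIP-seq peak lists of 2 LSY-2 GFP ChIP samples and 1 combined list, grouped by sample titles, were used. Per the file headers the authors called the peaks with SPP followed by IDR on build WS220, and the deposited values are a position and a score per peak on a scale that is not stated. Aligner, versions, thresholds and pooling are not stated in these sources. Each replicate list has 30000 peaks, so its lower ranks can hold background. The labels do not say whether replicates came from separate cultures.

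The span of V is bounded by the outermost peak edges of the 3 lists together. Midpoints placed peaks, which were ranked by the number in their name. Peaks were shared at an overlap of at least 1 bp. Shares have exact Clopper-Pearson 95% intervals and medians have 95% intervals from binomial order statistics. No hypothesis test was run. The regions named were the 10 best ranked, the 5 widest, the 5 lowest ranked, those missing from a replicate, the 5 whose ranks differed most, the best of each segment, and the fullest windows, largest gaps and closest pairs (3 each), with the fullest and emptiest 1 Mb bins. The members and lists were chosen with earlier results of these data known. Alternatives covered the centre, merging, rank, overlap and list. On 448 simulated peaks with 79.0% planted as shared, the overlap step recovered 79.5%. The planted peaks overlapped by design, so this checks the code only and does not measure overlap by chance in the real lists. Software was matplotlib 3.10.9, scipy 1.17.1, pandas 2.3.3 and numpy 2.4.6 under Python 3.11.15.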

Additional observations from a re-analysis of the deposited data

How the results depend on the processing

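Of 28 values recomputed under alternatives, 16 stayed within the interval of the reported value or, for counts, within 1.5 times of it. The central share stayed within its interval with merged peaks. It did so too in the first 3669 ranks of either replicate, most of whose V peaks overlap a combined region. The middle 33.3% of the span held 196 V regions, or 43.75%. Rescaled to 50% of the span this is 65.6%, also within the interval. In the better 50% of the combined list the central share was 68.1%, the median distance was 51.1 kb and the share at the common width was 46.5%. That part of the list holds fewer and better ranked peaks. Recurrence in both replicates was 83.5% at a reciprocal overlap of 50%, 92.4% with midpoints within 100 bp and 97.1% against only the better 50% of the replicate peaks, all of them stricter criteria. With 1 replicate left out it was 99.8% to 100%. Overlap of the V lists of the replicates, 40.3% in replicate 1 and 41.5% in replicate 2, was 28.3% and 29.2% at a reciprocal overlap of 50%, and 20.8% and 21.8% by midpoints within 100 bp. The rank correlation between replicates, 0.64 across V regions, was 0.65 over 449 one-to-one pairs. It has no interval and was counted among the values that moved. No paired analysis was possible because the inputs, which share replicate numbers with the ChIP samples, were not used here. Depth is unknown. Genes at V peaks were not analysed, for want of a WS220 annotation.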

Other observations

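A few strong replicate peaks on V had no counterpart in the combined list. They were singled out after their values were seen. Of the peaks within rank 1000 this was 1 of 118 in replicate 1 and 2 of 126 in replicate 2. Within rank 500, 100% of V peaks of replicate 1 and 98.2% of replicate 2 had a counterpart, beside 99.8% and 99.6% over all nuclear chromosomes. At ranks 501 to 1000 it was 98.1% and 98.6% on V, beside 99.2% and 98.2%. V was thus near the whole lists. V 9175194 to 9175573 stood at rank 566 in replicate 1, and the overlapping V 9175221 to 9175576 at rank 691 in replicate 2, with midpoints 15 bp apart. The nearest combined region was 37.3 kb away, although both ranks were better than those of most V regions that the list holds. The other, V 10965564 to 10965749, stood at rank 289 in replicate 2 at the maximum score of that list, 3.88. That score does not set it apart, since replicate 2 peaks at ranks 691 and 1355 had it too. V 10965564 to 10965749 overlapped no peak of replicate 1, whose nearest peak was 4.56 kb away at rank 8860.

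One-to-one pairs of overlapping replicate peaks numbered 1752 on V, and 1303 of them were away from the combined list. Across all 1752 pairs Spearman's rho of the ranks was 0.59, a description across pairs that share libraries. Across the 1303 it was 0.19 and across the 449 pairs at a combined region 0.65. Whether the making of the combined list with IDR sets this contrast was not tested.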
